A study of Mus musculus with 4 samples.

Results

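The genes described here are 8 members of a set built around enzymes that phenelzine inhibits. Kdm1a encodes the histone demethylase LSD1, and Rcor1, Rcor3, Hdac1, Hdac2, Phf21a and Hmg20b encode proteins of its complex. Maoa encodes a monoamine oxidase. The members were taken by name, as 8 of 21627 protein-coding genes of the mouse annotation, and all 8 were found in it. For each gene, peaks of accessible DNA were collected in the gene body and 20 kb on either side, called its locus below. The data are ATAC-seq libraries, in which the transposase Tn5 inserts sequencing adapters into open chromatin. All 4 libraries came from CD8+ lymphocytes of the Balb/c mouse strain, which the title of the series calls tumour-infiltrating T cells. The 4 groups were unstimulated and untreated cells, unstimulated cells with phenelzine, stimulated and untreated cells, and stimulated cells with phenelzine. Stimulation was with PMA, which activates protein kinase C, and ionomycin, a calcium ionophore, for 2 h. The phenelzine dose, the length of exposure, the tumour, the number of animals and their age are not stated in the material used here. Each group held 1 library, so no difference between groups has a replicate check, and none was tested.

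LSD1 removes methyl groups from lysine 4 of histone H3, a mark of active promoters and enhancers. It works in the CoREST complex, where the scaffold proteins CoREST1 (Rcor1) or CoREST3 (Rcor3) link it to the histone deacetylases HDAC1 and HDAC2. PHF21A, also called BHC80, reads the unmethylated histone tail, and HMG20B, also called BRAF35, is a DNA-bending subunit. Phenelzine is an irreversible inhibitor of monoamine oxidases A and B, flavin enzymes that break down neurotransmitter amines. LSD1 belongs to the same family of flavin-dependent amine oxidases, and phenelzine also inhibits it. Peaks describe how open a promoter is and measure neither RNA nor enzyme activity.

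The lists held 6525 peaks in unstimulated untreated, 7938 in unstimulated phenelzine, 10414 in stimulated untreated cells and 9331 in stimulated phenelzine cells. Total reads are not in the lists. The genome-wide background that each list implied, in overlapping fragments per base, was lowest in unstimulated untreated cells (0.392) and lay between 0.471 and 0.493 in the others. The weakest peak of each list had −log10 q (the authors' measure of confidence in a peak) between 1.00 and 1.02, so "no peak" means that a place did not reach that level. Peaks gave only a weak check of the cell type. Of 10 T cell markers, between 4 and 7 had a region in their locus in each list. Cd8a, Cd8b1 and Cd2 had none in any list. Over the 4 lists together 7 of the 10 had a region, beside 12568 of all 21627 protein-coding genes. This count therefore does not single out T cells. The Lck region among them lay 9 bp from Hdac1. Of 3 markers of CD4 and regulatory T cells 1 had a region in each unstimulated list, 3 in stimulated untreated cells and 2 in stimulated phenelzine cells, with Cd4 in stimulated untreated cells alone and Foxp3 in both stimulated lists. Of 5 B cell markers 2 had regions in every list, of 6 myeloid markers 2 or 3, and of the 4 epithelial, 3 NK and 5 stromal and endothelial markers between 0 and 2 each. The part of other cells in the results below was not tested.

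Across the 8 loci the 4 lists held 33 peaks, which merged into 13 distinct regions wherever peaks of different lists overlapped. The unstimulated untreated list held 8 of them, unstimulated phenelzine 8, stimulated untreated 7 and stimulated phenelzine 10. All 4 lists held 5 regions, 1 region was in 3 lists, 3 were in 2 lists and 4 were in 1 list. By the nearest gene end, 8 of the 13 belonged to a member. The other 5 lay nearest to Traf5, Marcksl1, Pex16 and Mfsd12, neighbours within the 20 kb flanks.

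**Figure D1:**
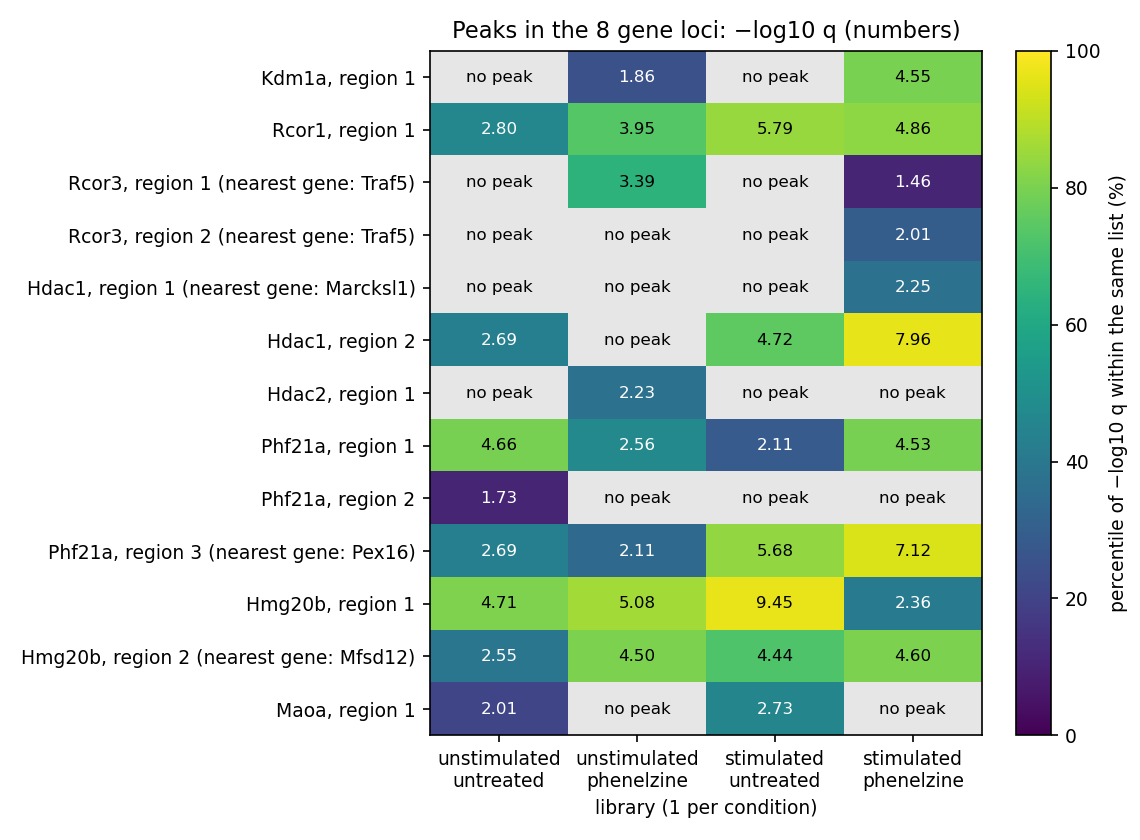
Each of the 13 regions (rows) in each library (columns), with the authors' −log10 q printed and the colour giving the peak's percentile within its own list. Grey cells have no peak. Kdm1a has peaks in the phenelzine columns alone (1.86 and 4.55) and Maoa in the untreated columns alone (2.01 and 2.73), while Rcor1 and Hmg20b are filled in all 4.

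The start windows of the 4 members with a peak in that window are shown first, because they show which letters lay under the peaks. RefSeq gives, for build GRCm38.p6 (the assembly that mm10 represents), windows of 250 bases before to 50 after a start site, and 7 of the 8 members had at least one. Capitals mark the stretch inside the window that lay under the peak of every list that had one there. The windows, all printed 5′ to 3′ on the strand of the gene, are Kdm1a at chr4:136602674-136602973 (minus strand), Rcor1 at chr12:111039117-111039416 (plus strand), Hmg20b at chr10:81350408-81350707 (minus strand, the outermost of 3 overlapping windows) and Hdac2 at chr10:36974294-36974593 (plus strand).
Kdm1a: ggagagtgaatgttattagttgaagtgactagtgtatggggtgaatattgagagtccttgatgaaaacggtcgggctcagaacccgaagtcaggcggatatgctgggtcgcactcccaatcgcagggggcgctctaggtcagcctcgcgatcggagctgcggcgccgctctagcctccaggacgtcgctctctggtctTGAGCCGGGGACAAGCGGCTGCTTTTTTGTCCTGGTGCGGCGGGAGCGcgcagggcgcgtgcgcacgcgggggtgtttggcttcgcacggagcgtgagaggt
Rcor1: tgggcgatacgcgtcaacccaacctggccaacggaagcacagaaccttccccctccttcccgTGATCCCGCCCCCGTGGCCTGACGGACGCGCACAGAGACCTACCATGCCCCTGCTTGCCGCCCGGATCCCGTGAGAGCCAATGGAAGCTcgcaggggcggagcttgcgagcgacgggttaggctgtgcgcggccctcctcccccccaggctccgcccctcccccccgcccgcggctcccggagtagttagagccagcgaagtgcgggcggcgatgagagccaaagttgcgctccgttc
Hmg20b: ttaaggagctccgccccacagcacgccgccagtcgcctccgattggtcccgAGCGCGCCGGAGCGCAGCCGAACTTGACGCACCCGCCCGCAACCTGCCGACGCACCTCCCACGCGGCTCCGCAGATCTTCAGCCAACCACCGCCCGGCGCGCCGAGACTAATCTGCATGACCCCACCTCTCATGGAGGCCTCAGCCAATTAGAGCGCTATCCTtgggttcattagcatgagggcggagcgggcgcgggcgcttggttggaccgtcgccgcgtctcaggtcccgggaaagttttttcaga
Hdac2: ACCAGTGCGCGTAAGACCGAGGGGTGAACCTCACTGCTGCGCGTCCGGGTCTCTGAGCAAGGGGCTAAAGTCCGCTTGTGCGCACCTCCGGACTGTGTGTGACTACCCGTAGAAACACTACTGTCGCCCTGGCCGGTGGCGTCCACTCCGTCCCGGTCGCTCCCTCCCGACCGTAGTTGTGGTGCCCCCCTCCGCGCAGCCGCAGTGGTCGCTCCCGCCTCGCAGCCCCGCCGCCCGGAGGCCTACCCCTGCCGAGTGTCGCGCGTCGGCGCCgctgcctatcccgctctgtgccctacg

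The capitals span 48 bases in Kdm1a (2 lists), 89 in Rcor1 (4 lists), 163 in Hmg20b (4 lists) and 273 in Hdac2 (1 list). All 4 windows were rich in G and C. The GC share was 61.3% in Kdm1a, 69.3% in Rcor1, 66.0% in Hmg20b and 69.7% in Hdac2, against a median of 56.7% over 21019 start windows of protein-coding genes. CG dinucleotides numbered 29, 31, 35 and 36, against a median of 13. The window of Maoa, which had no peak in any list, stood near the median with a GC share of 57.7% and 14 CG dinucleotides. The Rcor3 window, which had no peak either, had the highest values among the members (81.7%, 47 CG dinucleotides).

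A set of 10 letter patterns were searched on both strands, none of which contains another. They were the GC box GGGCGG, the CCAAT box CCAAT, an ETS core CCGGAA, the NRF1 core GCGCATGC, the CRE core TGACG, the E-box CACGTG, the AP-1 site TGANTCA, the TATA box TATAAA, the NF-kB pattern GGGAAT and the YY1 pattern AAGATGG. GC boxes, of which 46.6% of all start windows hold at least 1, occurred 6 times in the Rcor1 window, 4 times in Hmg20b and 1 time in Hdac2. Member windows without a peak held them too: 7 in Rcor3, 3 and 0 in the windows of Phf21a, and 2 in Maoa. GC boxes thus did not set the windows with a peak apart. The CCAAT box, held by 38.5% of windows, occurred 1 time each in Kdm1a and Rcor1 and 2 times in Hmg20b. It was absent from Hdac2 and from the member windows without a peak. The CRE core, held by 23.8%, occurred 2 times in Rcor1 and 1 time in Hmg20b. Without a peak, the Maoa window and the upstream Phf21a window held it 1 time each. The CCAAT box of Kdm1a, its single match to any of the patterns, lay outside the capitals. No AP-1 letters, which 7.04% of windows hold, were found in the windows of the 4 genes with a peak there.

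Kdm1a, the gene of LSD1 itself (chromosome 4, 136550533 to 136602787, minus strand), had 1 region in its locus, at its start. It lay at chr4:136602702-136602832, around the annotated start site at 136602723. In unstimulated phenelzine cells the peak had a fold enrichment (pileup over local background, as the authors' caller gave it) of 4.34 and −log10 q 1.86, at rank 5979 of 7938 peaks. The stimulated phenelzine peak had 5.97 and 4.55, at rank 1890 of 9331. Neither untreated list had a peak anywhere in the locus. Kdm1a thus had a called promoter peak in both phenelzine libraries and in neither untreated one, weak in its own list in unstimulated cells and at percentile 79.8 of −log10 q in stimulated cells. Of all 15237 regions of the series, 374 (2.45%) were held in that way by both phenelzine lists alone, and of 17273 genes with a start window 144 (0.834%) had start-window peaks in that pattern. The highest −log10 q of these 374 regions had a median of 2.60, and 7.22% of them reached the value of the Kdm1a region. Taking the genome-wide background as the local one, its fold enrichments correspond to mean pileups of 5.38 and 7.89 fragments. On that assumption the mean depth under the peak was low in each library. A higher local background would give higher values.

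Maoa, the gene of monoamine oxidase A (chromosome X, 16619698 to 16687812, plus strand), had the opposite pattern. Its 1 region lay at chrX:16618487-16618624, 1074 bp upstream of the start site and outside the start window. The peak had fold 4.44 and −log10 q 2.01 in unstimulated untreated cells (rank 5164 of 6525) and 4.79 and 2.73 in stimulated untreated cells (rank 5675 of 10414). Neither phenelzine list had a peak in the locus. Both Maoa peaks lay in the weaker part of their lists, at percentiles 20.9 and 45.5 of −log10 q. Regions of both untreated lists alone numbered 285 of 15237 (1.87%), with a median highest −log10 q of 2.73, so that of Maoa stood at their middle. On the same assumption about the background, the implied mean pileups were 5.18 and 6.15 fragments. With −log10 q of at least 3, Maoa had no region in any list and Kdm1a had one in stimulated phenelzine cells alone.

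Counts like those of Kdm1a (0 and 1 in the unstimulated, 0 and 1 in the stimulated lists, untreated first) were shared by 174 other genes, 1.38% of the 12568 with a region in any list. By the closest locus length these were Mink1, Rnf121 and 4930467E23Rik. The counts of Maoa were shared by 146 others (1.16%), of which Ppa2, Zfp710 and Sfswap were closest in locus length. Likeness here means identical counts over 4 libraries.

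Rcor1, which encodes the scaffold CoREST1 (chromosome 12, 111039367 to 111115902, plus strand), had 1 region in all 4 lists. It lay at chr12:111039073-111039296, 71 bp upstream of the start site, with no other protein-coding gene in the locus. Fold enrichment was 4.87 in unstimulated untreated, 5.50 in unstimulated phenelzine, 6.48 in stimulated untreated cells and 5.98 in stimulated phenelzine cells. The −log10 q values were 2.80, 3.95, 5.79 and 4.86 in the same order. Each value belongs to its own list, so the order between lists is not a measured change. Regions in all 4 lists made up 26.8% of the series (4085 of 15237).

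Rcor3, the gene of the paralog CoREST3 (chromosome 1, 192098546 to 192138074, minus strand), had no peak at its own start in any list. Its locus held 2 regions, in phenelzine lists alone, but both lay by the neighbouring gene Traf5, which encodes a signalling adaptor of TNF receptors. The first, chr1:192092442-192092724, covered the Traf5 start site, with fold 5.27 and −log10 q 3.39 in unstimulated phenelzine and 4.03 and 1.46 in stimulated phenelzine cells. The other, chr1:192093012-192093127, was 413 bp upstream of that start, in stimulated phenelzine cells alone (fold 4.37, −log10 q 2.01), as were 13.3% of all regions. Counted by the nearest gene, the region counts of Rcor3 were 0 in each list.

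**Figure D2:**
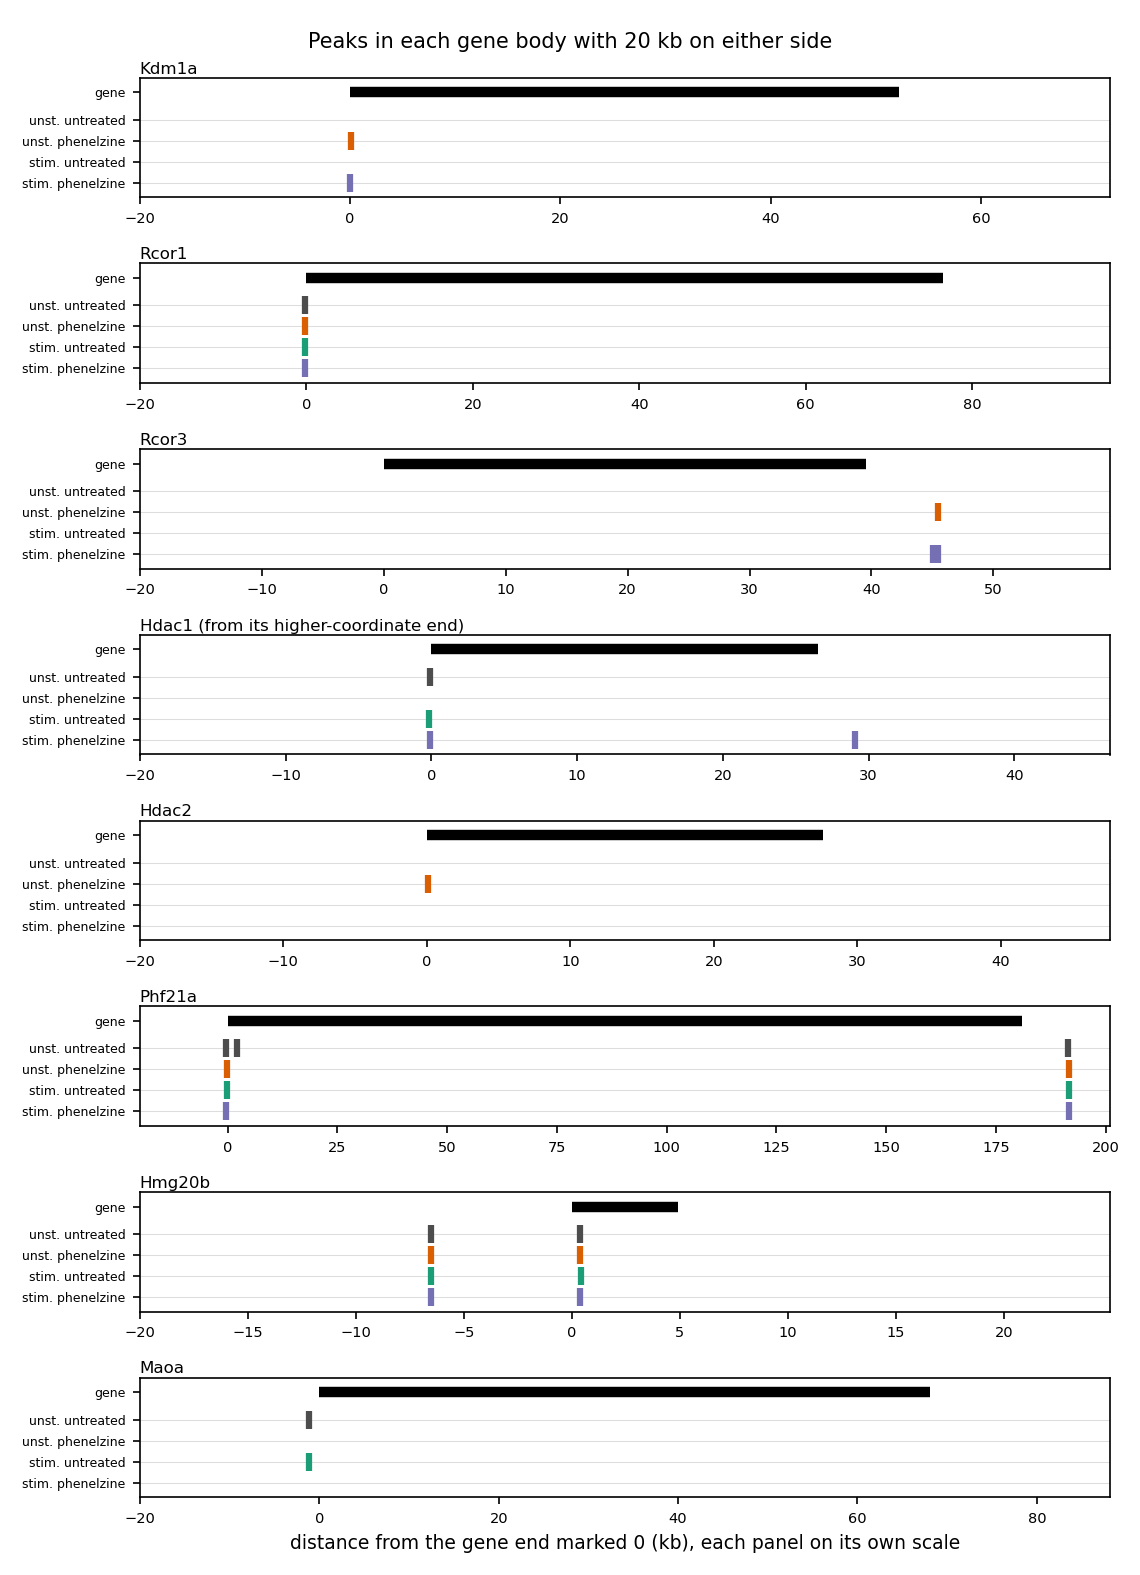
Peaks of each library (coloured ticks, drawn at peak centres and wider than the peaks) along each locus, with the gene as a black bar and distance in kb on the x axis. Zero is the end of the gene on the side of its start, or for Hdac1 its higher-coordinate end. Most ticks stand at 0, while those of Rcor3, the far tick of Hdac1, the far ticks of Phf21a and those left of Hmg20b stand at neighbouring genes.

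The deacetylase genes differed from each other. Hdac1 (chromosome 4, 129516104 to 129542646) had a region just beyond its higher-coordinate end, at chr4:129542655-129542843, 9 bp from it. The peak had fold 4.89 and −log10 q 2.69 in unstimulated untreated, 5.97 and 4.72 in stimulated untreated, and 7.72 and 7.96 in stimulated phenelzine cells. It ranked 336 of 9331 in the last and was not called in unstimulated phenelzine cells. The pattern of 3 lists without unstimulated phenelzine was held by 566 of 15237 regions (3.71%). This region was also the one counted for Lck, the T cell receptor kinase gene next to Hdac1, whose nearest start site was 15529 bp away. A further region at chr4:129513546-129513655, in stimulated phenelzine cells alone (fold 4.53, −log10 q 2.25), lay at the start site of the neighbour Marcksl1.

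Hdac2 (chromosome 10, 36974297 to 37001889, plus strand) had 1 region, chr10:36974236-36974566, over its start site at 36974544. It was called in unstimulated phenelzine cells alone, with fold 4.54 and −log10 q 2.23, at rank 4963 of 7938. At 331 bp it was wide for its list, whose median width was 142 bp. Regions of that list alone numbered 1268 (8.32%), and start windows with a peak in that list alone 225 of 17273 (1.30%). Thus in unstimulated phenelzine cells Hdac2 had a called start, while the Hdac1 region was not called. Each of the other 3 libraries had the Hdac1 region and no Hdac2 peak. With −log10 q of at least 3, Hdac2 had no region in any list and Hdac1 none in either unstimulated list.

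Phf21a, the gene of the histone reader BHC80 (chromosome 2, 92183751 to 92364667, plus strand), had a region in all 4 lists at the upstream end of the gene, chr2:92183352-92183783. The −log10 q was 4.66 in unstimulated untreated, 2.56 in unstimulated phenelzine, 2.11 in stimulated untreated cells and 4.53 in stimulated phenelzine cells, with folds of 6.05, 4.69, 4.36 and 5.81. The peaks of both middle lists were broad (419 and 417 bp) and those of the outer ones narrow (126 and 104 bp). A weak region of unstimulated untreated cells alone, chr2:92185771-92185842 (fold 4.26, −log10 q 1.73), lay inside the gene, 288 bp downstream of an annotated start site. Regions of that list alone made up 4.39% of all. The third region of the locus, in all 4 lists, lay at a start site of the neighbour Pex16, a peroxisome assembly gene (−log10 q 2.69, 2.11, 5.68 and 7.12 in the order above).

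Hmg20b, the gene of the DNA-bending subunit BRAF35 (chromosome 10, 81346046 to 81350943, minus strand), had the member region with the highest −log10 q. The merged region, chr10:81350360-81350713, was in all 4 lists and spanned the start sites from 81350426 to 81350457. The stimulated untreated peak covered all of these sites, and both unstimulated peaks covered the outermost alone. The stimulated phenelzine peak (81350494 to 81350682) covered none of them. Fold enrichment was 6.01 in unstimulated untreated, 6.05 in unstimulated phenelzine, 7.81 in stimulated untreated cells and 4.55 in stimulated phenelzine cells, and −log10 q 4.71, 5.08, 9.45 and 2.36. Among the peaks of its list it ranked 351 of 10414 in stimulated untreated and 5500 of 9331 in stimulated phenelzine cells. The remaining region, chr10:81357403-81357513, lay at the start site of the neighbour Mfsd12, also in all 4 lists (−log10 q 2.55, 4.50, 4.44 and 4.60).

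In all, a peak in a start window was seen in all 4 lists for Rcor1 and Hmg20b, in both phenelzine lists for Kdm1a, and in 1 list for Hdac2. Rcor3, Phf21a and Maoa had none in the windows the table holds, and Hdac1 was not matched to a window. Over 17273 genes with a window, 17.4% had a peak there in all 4 lists and 65.1% in none. By list, unstimulated cells had a peak in 22.7% of windows without and 25.5% with phenelzine, and stimulated cells in 29.1% and 27.4%.

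Stimulated and unstimulated cells were then compared over the 8 loci by stimulated minus unstimulated regions. The 12568 genes with a region in any list served as background, and all 8 members were among them. In untreated cells 0 of 8 members had more regions after stimulation, whereas 40.6% of all genes did. The stimulated list was the longer one, and with lists cut to equal size the member counts stayed at 0 more and 1 fewer while the shares of all genes became 22.9% more and 20.2% fewer. Phf21a had fewer (2 against 3), as did 7.79% of all genes, and the other 7 had equal counts. The median difference was 0 in the members and 0 in all genes. The lists shared 7 member regions, and the single one held by 1 list alone was the weak intragenic Phf21a region. This count depended on weak peaks: with −log10 q of at least 3, 3 of 8 members had more regions after stimulation and 0 fewer, beside 39.9% and 9.89% of all genes.

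In phenelzine-treated cells 2 of 8 members had more regions after stimulation, near the background of 27.5%. These were Hdac1 (2 against 0) and Rcor3 (2 against 1, through Traf5). One had fewer, Hdac2 (0 against 1), against 16.4% of all genes, and 5 had equal counts, with a median difference of 0 in members and in all genes. With lists of equal size 1 member had more and 2 had fewer, beside 20.7% and 20.4% of all genes, and Rcor3 changed from 1 to -1.

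Phenelzine was then compared with no drug in unstimulated cells. Kdm1a (1 against 0), Rcor3 (1 against 0) and Hdac2 (1 against 0) had more regions, 3 of 8 members beside 27.0% of all genes. Hdac1 (0 against 1), Phf21a (2 against 3) and Maoa (0 against 1) had fewer, 3 of 8 beside 14.7%. The lists shared 5 member regions, and each held 3 that the other lacked. With −log10 q of at least 3, the members with more were again 3 but became Rcor1, Rcor3 and Hmg20b, and 1 had fewer, Phf21a, beside 23.6% and 19.2% of all genes. Kdm1a, Hdac2 and Maoa then had 0 regions in both lists, as did Hdac1. The median difference was 0 in members and in all genes.

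In stimulated cells Kdm1a (1 against 0), Rcor3 (2 against 0) and Hdac1 (2 against 1) had more regions with phenelzine, 3 of 8 beside 17.8% of all genes. Maoa (0 against 1) had fewer, 1 of 8 beside 28.0%, and both medians were again 0. Of the 4 member regions that phenelzine cells alone held, 3 lay at Traf5 and Marcksl1. By the nearest gene end 1 member, Kdm1a, had more and 1, Maoa, had fewer. The share of all genes was not computed for that assignment, so these counts have no background. With lists of equal size 3 members had more and 1 fewer, beside 20.6% and 22.0% of all genes. Phf21a then took the place of Rcor3 among those with more. With −log10 q of at least 3, 2 had more, Kdm1a and Phf21a, and 1 had fewer, Hmg20b. The shares of all genes were then 15.8% and 32.1%. In the main counts Kdm1a, Rcor3 and Maoa each differed in the same direction in both phenelzine contrasts, Rcor3 through the regions at Traf5. With −log10 q of at least 3, Kdm1a had no region in either unstimulated list and Maoa none in any list. The 4 contrasts share lists, since each library enters 2 of them, so they are not independent of one another.

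**Figure D3:**
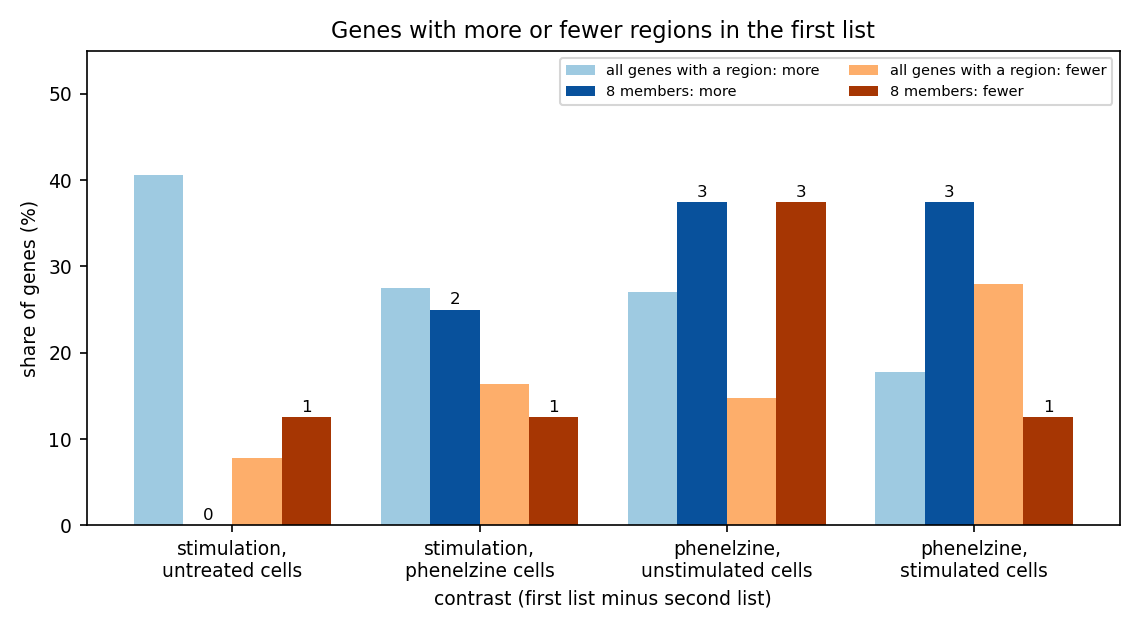
Share of genes (y axis, %) with more or fewer regions in the first list of each contrast (x axis), for all 12568 genes with a region (light bars) and for the 8 members (dark bars, with their number on top). In untreated cells 40.6% of genes had more regions after stimulation (22.9% with lists of equal size) and 0 members did. With −log10 q of at least 3, not drawn here, 3 members had more, beside 39.9% of genes.

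Whether a region was called in several lists went with its strength. Regions were classed by the highest percentile of −log10 q that they reached within any list, a measure that favours regions held by more lists. Among the 4130 regions above the 75th percentile 73.0% were held by all 4 lists, 15.8% by 3, 7.34% by 2 and 3.85% by 1. Of the 7 member regions in this class 5 were in all 4 lists, the Hdac1 region in 3 and the Kdm1a region in 2. Among the 3500 regions between the 25th and 50th percentiles 55.1% were in 1 list alone, and below the 25th it was 88.3% of 4166. Of the 5 member regions in these classes 4 were in 1 list, among them the Hdac2 region, and the Maoa region was in 2. Between the 50th and 75th percentiles lay 1 member region, that at the Traf5 start, in 2 lists. The Hdac2, Marcksl1 and intragenic Phf21a regions thus had the most common pattern of their classes. Presence in 2 lists, as for Kdm1a, was uncommon in its class, but this depends on the class border. Its peak in stimulated phenelzine cells stood at percentile 79.8 and that in unstimulated phenelzine cells at 24.7. Between the 50th and 75th percentiles 23.9% of regions were in 2 lists.

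**Figure D4:**
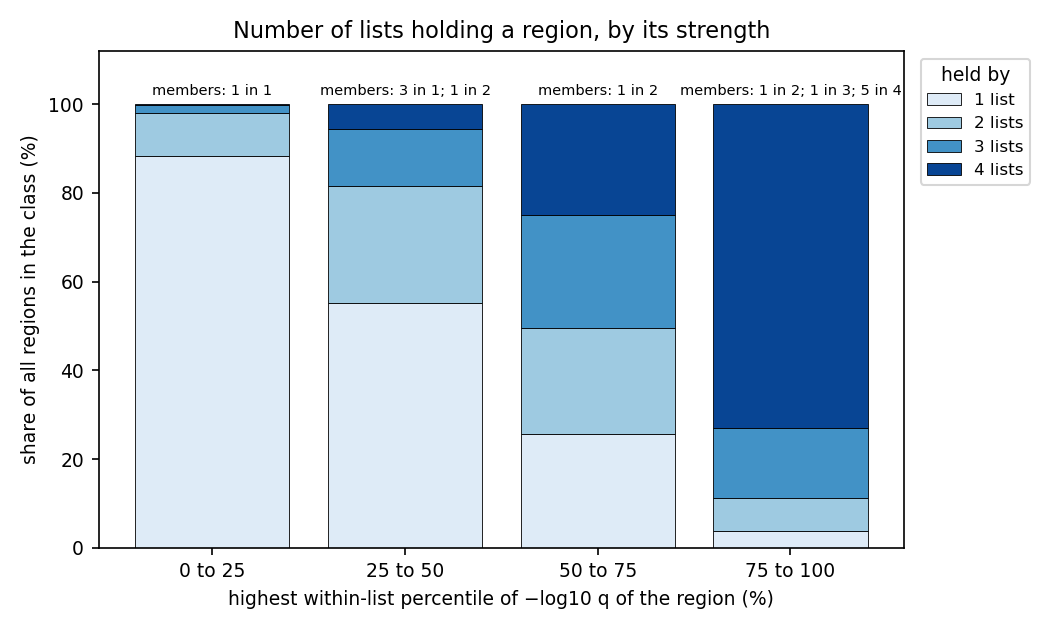
Share of all regions (y axis, %) held by 1 to 4 lists (blue shades), in 4 classes of the highest within-list percentile of −log10 q (x axis). The text above each bar counts the member regions. The share held by all 4 lists is 73.0% in the strongest class, which has 5 member regions in 4 lists, 1 in 3 and 1 in 2.

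A wider list of 25 genes was set beside the members: paralogs and partners of the CoREST complex, factors that recruit it to DNA, the NuRD complex (a chromatin remodelling and deacetylase complex that can hold LSD1) and further amine enzymes. Over all 21627 protein-coding genes 12568 had a region in at least 1 list. Of the 25 genes, 4 had none in any list. They were Rcor2, a further CoREST paralog, Zmym2, a zinc-finger partner of the complex, Gfi1, a repressor that brings LSD1 to its targets in blood cells, and Maob, the gene of the other monoamine oxidase. Each of the 4 lists had a region at 11 of 25. In 6 of the 25 the count was the same in every list and above 0. These were Kdm1b, the gene of the second LSD-type demethylase, Ctbp1, Chd4, Rbbp4, Mbd3 and Gatad2b, named after their values were seen. The shares of all genes with such counts were not computed, so the counts are not read as traits of these genes. The single Chd4 region lay nearest to its neighbour Nop2.

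After stimulation in untreated cells 10 of these 25 genes had more regions and 3 fewer. In the background of 12568 genes with a region the shares were 40.6% and 7.79%. In phenelzine-treated cells 3 of the 25 had more and 6 fewer, beside 27.5% and 16.4%. With phenelzine 9 had more and 3 fewer in unstimulated cells, beside 27.0% and 14.7%. In stimulated cells 3 had more and 6 fewer, beside 17.8% and 28.0%. The medians were 0, as in the background. The 25 include 4 genes without a region, which could not differ between lists, whereas the background leaves such genes out. Differences of 2 regions occurred at 3 genes. Gse1, a CoREST partner with 5 regions in its locus, 2 of them nearest to its neighbour Gins2, had 1 in unstimulated untreated, 3 in unstimulated phenelzine, 2 in stimulated untreated cells and 3 in stimulated phenelzine cells. Those nearest to Gins2 made up the 1 region of unstimulated untreated cells, 1 of the 2 in stimulated untreated cells and 2 of the 3 in each phenelzine list. Ctbp2, a corepressor gene, had 2 in stimulated untreated cells alone, both weak (−log10 q 1.41 and 1.59). Rest, the repressor that recruits CoREST to neuronal genes, had 2 in unstimulated phenelzine cells alone (1.83 and 1.86), one of them nearest to Noa1.

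**Figure D5:**
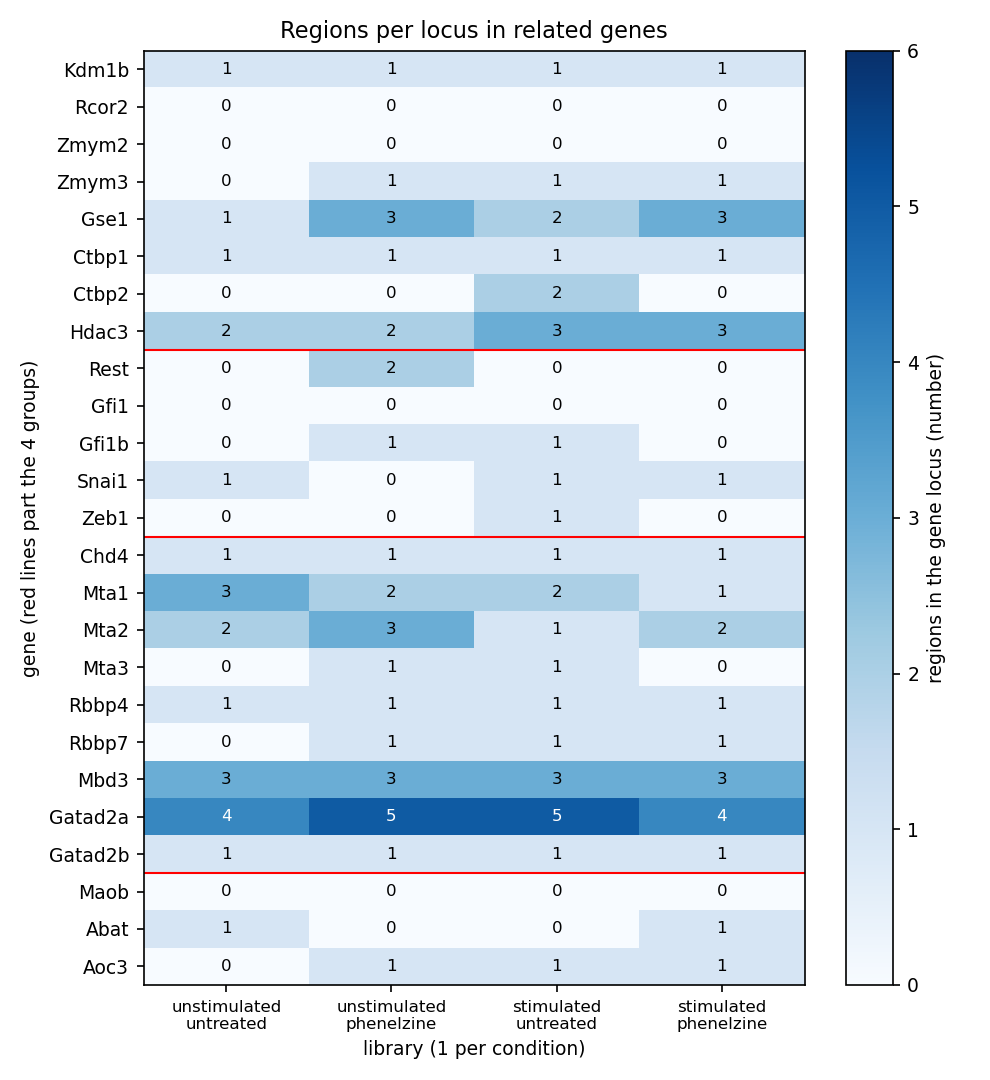
Number of regions in the locus of each of 25 related genes (rows, in 4 groups parted by red lines: complex partners and paralogs, recruiting factors, NuRD, amine enzymes) in each library (columns). Mbd3 has 3 in every list, whereas Rest has 2 in unstimulated phenelzine and Ctbp2 has 2 in stimulated untreated cells alone.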

How the data were processed

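ATAC-seq was measured in 4 libraries, 1 per group. The submitters' processing notes name Bowtie2 2.2.5, Trimmomatic 0.33, MACS2, Picard and HOMER, and build mm10. No parameters or filters are stated in the labels. Peak names carry the tag less120, which no source used here explains. If it is an upper limit on fragment length, peaks and implied pileups refer to short fragments only. Peaks were called per library. The deposited score of each peak was 10 times −log10 q, rounded down. The deposited fold enrichment, a ratio, and the deposited −log10 p and −log10 q describe a peak within its own list.

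Computed here (Python 3.11.15, pandas 2.3.3): coordinates were counted from 1, and peaks on chromosomes 1 to 19 and X were merged across lists by at least 1 bp overlap. A locus was the gene body with 20 kb on either side, from RefSeq genes of GRCm38.p6. Background pileup came from the commonest combination of fold and −log10 p in a list, with fold read as (pileup + 1) over (background + 1) and p as an upper Poisson tail. Merging and counting were tested on simulated data. Alternatives used −log10 q of at least 3, lists of equal size, flanks of 5 and 50 kb, merging across 100 bp and 50% overlap. The nearest-gene assignment was added after seeing the data. All 8 members were described. Among related genes, those with a difference of at least 2 regions in a contrast or with no region were named, and 1 gene of the planned list is not reported here. For Kdm1a and Maoa the 3 genes with identical counts and closest locus length, over 1 Mb away, were named. Members and lists were chosen with earlier results of these data known. No test was made, since each group held 1 library.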

Additional observations from a re-analysis of the deposited data

Results flagged for a closer look

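Hdac1 differed in direction between the phenelzine contrasts. In unstimulated cells it had 0 regions with phenelzine and 1 without (a difference of -1), and in stimulated cells 2 with and 1 without (a difference of 1), so the contrasts were 2 regions apart. This difference was not tested. By the nearest gene end the stimulated libraries had 1 Hdac1 region each, since the further region with phenelzine lay at Marcksl1. With −log10 q of at least 3, Hdac1 had 0 regions in each unstimulated list and 1 in each stimulated list. Both phenelzine differences were then 0.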

How the results depend on the processing

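No paired analysis was possible because each group held 1 library. Merging across 100 bp and requiring 50% overlap of the shorter peak left all 12 counts over the members unchanged. For the other alternatives, the counts that moved by more than 1.5 times are given. With −log10 q of at least 3 the member regions numbered 2 in unstimulated untreated, 4 in unstimulated phenelzine and 6 in stimulated phenelzine cells. Members with more and fewer regions after stimulation in untreated cells became 3 and 0. Those with fewer after stimulation with phenelzine became 2, beside 16.7% of all genes. Those with fewer with phenelzine in unstimulated cells became 1. With lists of equal size, members with more and fewer regions after stimulation in phenelzine-treated cells were 1 and 2. With flanks of 5 kb the unstimulated phenelzine list held 5 member regions and the stimulated phenelzine list 6. After stimulation with phenelzine 1 member had more, beside 23.4% of all genes. With flanks of 50 kb the unstimulated phenelzine list held 14. In that contrast 1 member had more and 3 fewer, beside 33.2% and 18.9% of all genes. By the nearest gene end both phenelzine lists held 5, and 1 member had more in that contrast and 1 with phenelzine in stimulated cells. Shares of all genes were not computed for that assignment. Rcor3 reversed after stimulation with phenelzine, to -1 with −log10 q of at least 3, with equal lists and with 50 kb. In each case the cause was not tested. Kdm1a kept a region in both phenelzine lists, and Maoa in both untreated lists, under each alternative but −log10 q of at least 3. Depth is known only through the implied background. With that background taken as the local one, most member peaks imply mean pileups below 10 fragments.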
